A study of Homo sapiens with 4 samples.

Results

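The 9 genes described here supply or remove the nucleotides from which DNA is made: RRM1, RRM2, CAD, TYMS, DUT, DTYMK, TK1, DCK and SAMHD1. They were chosen by name, so every gene probe of the expression arrays whose gene name equalled 1 of these symbols was taken, whatever its value. This gave 11 probes, each printed as 1 spot, of 34127 gene probes and 43118 gene spots, and 9 of 27274 gene names. DUT and SAMHD1 had 2 probes each and the other 7 genes had 1.

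RNA came from 2 human prostate cancer cell lines, LNCaP, which is androgen dependent, and PC3, which is androgen independent. Each line was grown in RPMI medium with fetal bovine serum to low confluence and was then either left without drug (control) or exposed for 24 h to 10 µM atorvastatin (ATO), a statin that inhibits HMG-CoA reductase. No vehicle is named for the controls, which the labels give as untreated. Each of the 4 groups (control and ATO in either line) had 1 array, hybridised with total RNA of the whole culture on a 1-colour Agilent array, so no difference below has a replicate check.

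Deoxynucleotides are made along a pair of routes. In the de novo route, CAD starts pyrimidine synthesis, ribonucleotide reductase (RRM1 with RRM2) turns ribonucleotides into deoxyribonucleotides, and DUT, TYMS and DTYMK lead from dUTP to dTDP. In the salvage route, TK1 and DCK phosphorylate deoxynucleosides taken up from outside the cell, while SAMHD1 cuts deoxynucleotides back to nucleosides. Many of these genes, RRM2, TYMS and TK1 among them, are known to be transcribed mainly around S phase in dividing cells, under E2F factors and NF-Y.

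The promoter sequences of 4 of the genes, picked by name, are shown. They hold 8 of the 14 matches found to the exact strings searched for those 2 factors, but were not picked by the number of matches. The SAMHD1 window, which is not shown, holds 2 and the DUT window shown holds 1. Each runs over the 150 bases before an annotated start site of RefSeq on the GRCh38.p14 build, 5′ to 3′ in the direction of the gene, with motif matches in capitals: CCAAT or its reverse complement ATTGG for NF-Y, TTTGGCGC for E2F and GGGCGG for the GC box. For RRM2, DUT and TK1, which have several annotated start sites, the start shown was chosen after the matches were seen. RRM2 lies at chr2:10122589-10122738 on the plus strand, DTYMK at chr2:241686816-241686965 on the minus strand, DUT at chr15:48332047-48332196 on the plus strand and TK1 at chr17:78187053-78187202 on the minus strand.
RRM2: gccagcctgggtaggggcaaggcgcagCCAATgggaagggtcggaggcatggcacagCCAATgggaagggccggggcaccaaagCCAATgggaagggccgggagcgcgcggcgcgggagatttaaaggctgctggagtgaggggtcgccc
DTYMK: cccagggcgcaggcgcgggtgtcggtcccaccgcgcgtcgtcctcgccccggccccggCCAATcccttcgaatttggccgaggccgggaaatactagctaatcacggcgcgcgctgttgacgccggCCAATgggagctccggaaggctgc
DUT: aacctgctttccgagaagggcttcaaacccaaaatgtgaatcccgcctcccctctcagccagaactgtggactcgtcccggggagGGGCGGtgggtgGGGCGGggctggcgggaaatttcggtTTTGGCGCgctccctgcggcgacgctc
TK1: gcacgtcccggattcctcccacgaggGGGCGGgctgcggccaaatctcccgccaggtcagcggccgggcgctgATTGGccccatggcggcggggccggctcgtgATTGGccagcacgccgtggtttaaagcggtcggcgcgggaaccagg

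Positions are given in bases from the start site, negative before it. In the RRM2 window CCAAT stood 3 times, at -123, -93 and -66. TK1 held it in reverse at -77 and -46, and DTYMK in the forward direction at -92 and -24. The DUT window shown held no CCAAT but TTTGGCGC at -27, with GC boxes at -65 and -53.

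All 9 genes matched RefSeq by symbol, with 14 start windows of 250 bases before to 50 bases after the start. Searched on both strands, CCAAT was present in windows of 6 of the 9 genes (all but TYMS, DUT and DCK) and in 34.6% of all 35116 RefSeq windows, or in at least 1 window of 39.7% of 27305 gene symbols. TTTGGCGC was found for 2 of the 9, DUT and DCK, and for 0.795% of all symbols (0.652% of windows). TTTCGCGC was found for none of the 9 and for 0.630% of symbols (0.515% of windows). GGGCGG was found for 7 of the 9 and for 48.3% of symbols (45.0% of windows), and the E-box CACGTG for DCK alone and for 8.77% of symbols (7.26% of windows). Each motif was searched as an exact string, so sites spelled otherwise were not counted and a gene without a match may still hold such a site. The motifs do not overlap in the matches found, and a match is only a run of letters: the arrays measured RNA and not the binding of any factor.

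**Figure D1:**
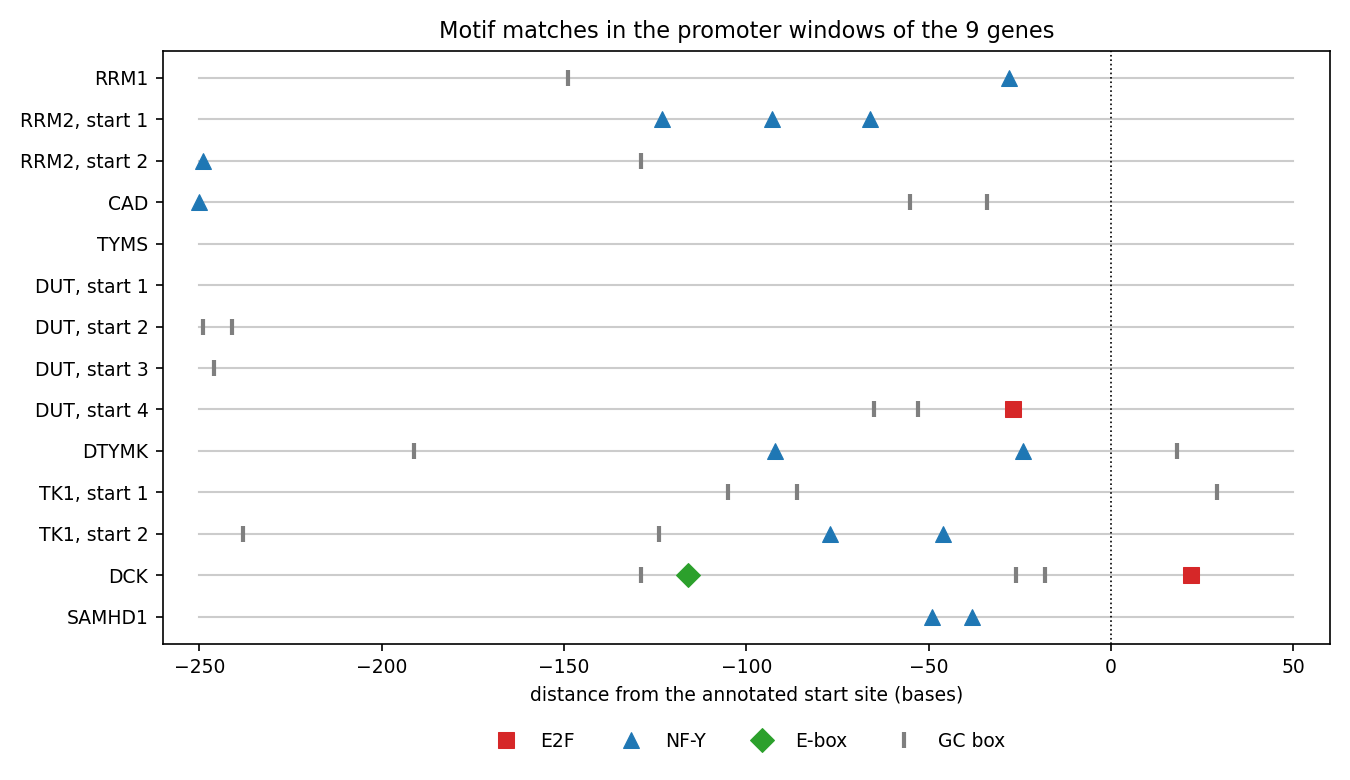
Motif matches in the 14 promoter windows of the 9 genes, plotted by distance in bases from the annotated start site (dotted line), with 1 row per start site and 1 symbol per match. The 3 NF-Y matches at the first listed RRM2 start and the pairs of DTYMK, TK1 and SAMHD1 lie within 150 bases before the start. The fourth RRM2 match lies at -249 from its other start, and TYMS has no match to the strings searched.

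DUT is the only gene of the 9 whose probe pair can be compared letter by letter at the same place, and its probes are shown because they gave different values. On hg18, the build of the array files, the brighter probe covers chr15:46421055-46421550 and the dimmer one chr15:46421029-46421523, both on the plus strand. Each has 60 bases over a span of 496 and 495 bases, so both skip genome sequence that lies within their span. They share 33 bases apart from 1 substitution, C23T, counted from 1 at the 5′ end of the brighter probe, and its letter is in capitals.
DUT brighter probe: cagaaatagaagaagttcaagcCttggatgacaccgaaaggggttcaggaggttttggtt
DUT dimmer probe: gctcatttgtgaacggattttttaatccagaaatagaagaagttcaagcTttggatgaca

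The other probes lie at these places on hg18, as the array files give them: RRM1 at chr11:4116523-4116582, RRM2 at chr2:10187938-10187997, CAD at chr2:27319274-27319333, TYMS at chr18:663276-663335 and DCK at chr4:72114797-72114856 on the plus strand, and TK1 at chr17:73681788-73681847 on the minus strand. The 2 SAMHD1 probes lie on the minus strand at chr20:34954173-34954232 (brighter) and chr20:34967218-34967277 (dimmer). The DTYMK probe is placed on an unassigned part of its chromosome, chr2_random:92986-93045, on the minus strand. Whether a probe lies in an exon, an intron or a UTR was not looked up, since no annotation of hg18 was used here.

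Values below are processed signals in scanner units, first as measured and then as log2 ratios after each array was scaled to its own 75th percentile. The error of a log2 ratio is the scanner's own error estimate of both spots combined, which covers neither the culture nor the labelling. For bright spots this estimate was nearly the same everywhere, 0.144 for TK1 in the LNCaP control and 0.145 for RRM2 in PC3 ATO. It was wider for dim spots, as 0.31 for DCK in the PC3 control. A limit in errors is thus close to a fixed fold for bright genes, and shares over all genes include dim ones. Gene probes printed several times on an array differed between copies by a median SD of 0.09 to 0.10 on the log2 scale. Of the gene spots, 48.5% to 52.9% were well above background (the scanner's own call) and none was saturated. All 4 arrays came from 1 slide and 1 scan, so slide position and group cannot be told apart. All 7 of 7 cell line markers lay on the side of their label: KLK3, the prostate specific antigen, read 65987 in the LNCaP control and 11.2 in the PC3 control, and CAV1, caveolin, 7.78 and 12387.

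Most of the 9 genes had a lower scaled signal after ATO in both lines, by less than 1.5-fold except for RRM2 in PC3. In LNCaP, 7 of 9 genes had a log2 ratio below 0, where 45.4% of all genes with a value did, and none of the 9 reached 1.5-fold, where 4.75% of all genes did in either direction (653 of 13739). The median log2 ratio of the 9 was -0.22, against 0 over all genes, whose quartiles were -0.10 and 0.11. In PC3, 8 of 9 had a log2 ratio below 0, where 50.7% of all genes did, and 1 of 9, RRM2, was at least 1.5-fold lower. That share, 11.1%, is near the background: 10.3% of all genes with a value were at least 1.5-fold lower in PC3 and 18.5% (2552 of 13815) were so in either direction. The median of the 9 in PC3 was -0.47, against -0.01 over all genes, with quartiles of -0.27 and 0.24. In these bulk cultures fewer cells that express a gene and less RNA of it per cell cannot be told apart.

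**Figure D2:**
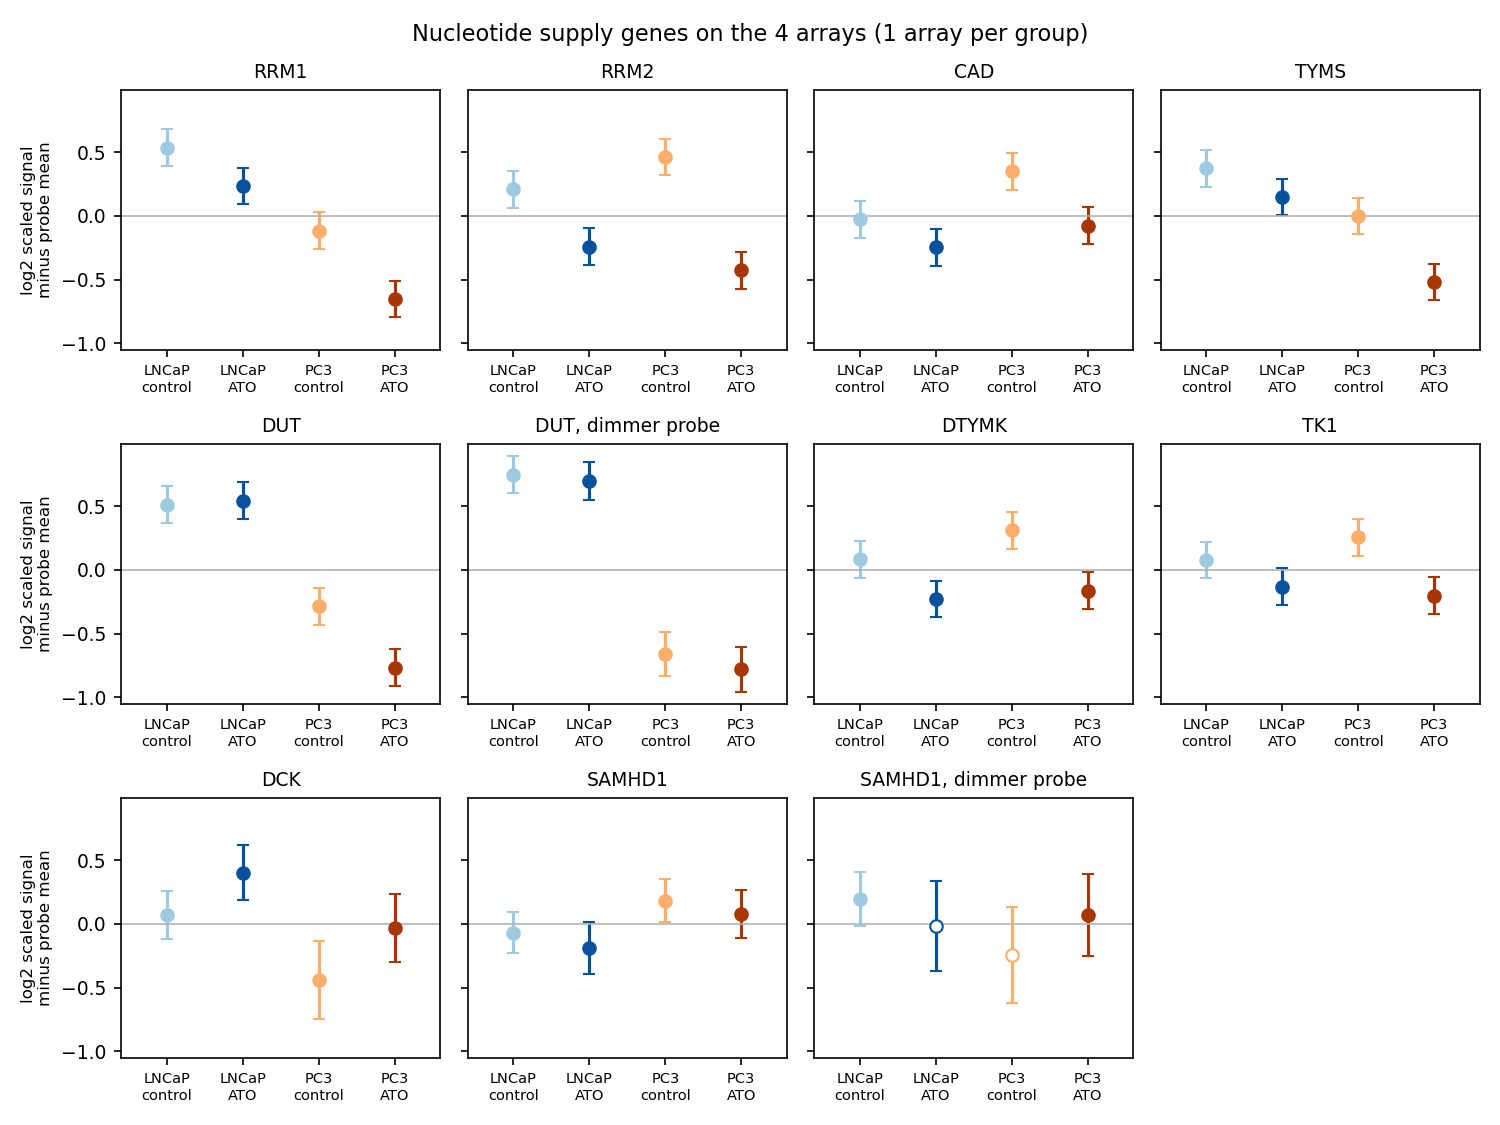
Log2 scaled signal of each of the 11 probes on the 4 arrays, minus the mean of that probe, so that levels of different probes are not set against each other. Bars show the scanner's error and open points are spots not well above background. In the 7 panels of RRM1, RRM2, CAD, TYMS, DTYMK, TK1 and the brighter DUT probe, the PC3 ATO point lies below the PC3 control point. It also lies below for the dimmer DUT probe and the brighter SAMHD1 probe, within the error of the ratio.

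Ribonucleotide reductase makes the deoxynucleotide pool, with RRM1 as the large catalytic and regulatory subunit and RRM2 as the small radical-carrying subunit whose level follows the cell cycle. The RRM2 signal was 1739 in the LNCaP control, 1365 in LNCaP ATO, 2458 in the PC3 control and 1283 in PC3 ATO. PC3 control was thus the highest array and PC3 ATO the lowest, and the 2 ATO arrays were closer together than their error. The log2 ratio of ATO to control was -0.89 ± 0.20 in PC3, a 1.85-fold lower signal, and -0.45 ± 0.20 in LNCaP. Of all genes with a value, 4.84% had a ratio as low or lower in PC3 and 3.12% in LNCaP. In both lines RRM2 had the lowest ratio of the 9. The local background around its spot was 1.35 times the array's median on the PC3 control (120 scanner units), and its part in the ratio was not tested.

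RRM1 read 6452 in the LNCaP control, 5616 in LNCaP ATO, 4864 in the PC3 control and 3245 in PC3 ATO. Each step in that order exceeded the error, and both PC3 arrays lay below both LNCaP arrays. The log2 ratio of ATO to control was -0.30 ± 0.20 in LNCaP and -0.54 ± 0.20 in PC3, short of 1.5-fold in both. The local background around the RRM1 spot was 1.38 times the array's median on PC3 ATO (124 scanner units), and its part in the ratio was not tested. RRM2B, the alternative small subunit that works outside S phase, was listed with the other nucleotide genes. It had log2 ratios of 0.24 in LNCaP and 0.23 in PC3, short of 1.5-fold in both, and their errors are not given here.

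CAD is a single protein that carries the first 3 enzymes of de novo pyrimidine synthesis. Its signal was 1504 in the LNCaP control, 1385 in LNCaP ATO, 2314 in the PC3 control and 1661 in PC3 ATO. Only the PC3 control stood apart from the next array by more than the error. The log2 ratio of ATO to control was -0.22 ± 0.20 in LNCaP and -0.43 ± 0.20 in PC3.

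TYMS, DUT and DTYMK act in sequence to make thymidine nucleotides. DUT removes dUTP and yields dUMP, TYMS (thymidylate synthase, the target of 5-fluorouracil) methylates dUMP to dTMP with a folate cofactor, and DTYMK adds the next phosphate. TYMS read 13265 in the LNCaP control, 12175 in LNCaP ATO, 12111 in the PC3 control and 8178 in PC3 ATO. PC3 ATO was the lowest array, while LNCaP ATO and PC3 control lay within their error of each other. For ATO over control, the log2 ratio came to -0.22 ± 0.20 in LNCaP and -0.52 ± 0.20 in PC3.

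DTYMK had 5480 in the LNCaP control, 4733 in LNCaP ATO, 7593 in the PC3 control and 5292 in PC3 ATO. The 2 ATO arrays were again within their error, below both controls. The log2 ratio of ATO to control was -0.31 ± 0.20 in LNCaP and -0.47 ± 0.20 in PC3.

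DUT was the gene of the thymidine branch whose 2 lines read most unlike. Its brighter probe had 10928 in the LNCaP control, 11973 in LNCaP ATO, 7451 in the PC3 control and 5162 in PC3 ATO. The 2 LNCaP arrays did not differ beyond their error, at a log2 ratio of 0.03 ± 0.20, whereas the ratio was -0.48 ± 0.20 in PC3. The dimmer probe, with the other letter at the site shown above, read 403, 416, 180 and 160 on the same arrays, with log2 ratios of -0.05 ± 0.21 in LNCaP and -0.12 ± 0.25 in PC3. Both probes thus put PC3 below LNCaP, but the lower value with ATO in PC3 rested on the brighter probe. The local background of the brighter probe was 1.41 times the array's median on LNCaP ATO and 1.35 times on the PC3 control, and that of the dimmer probe 1.48 times on PC3 ATO. The part of these backgrounds in the ratios was not tested.

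The salvage kinases had ratios of opposite sign. TK1, the cytosolic thymidine kinase that rises in S phase, read 14840 in the LNCaP control, 13755 in LNCaP ATO, 19867 in the PC3 control and 13993 in PC3 ATO. Its ratios were -0.21 ± 0.20 (log2) in LNCaP and -0.46 ± 0.20 in PC3, close to those of CAD and DTYMK. DCK, the deoxycytidine kinase that also activates gemcitabine and cytarabine and is less tied to S phase, was the only gene of the 9 with a higher signal after ATO in both lines. It read 97.3 in the LNCaP control, 131 in LNCaP ATO, 80.9 in the PC3 control and 104 in PC3 ATO. At these low signals the errors were wide, with log2 ratios of 0.33 ± 0.29 in LNCaP and 0.41 ± 0.41 in PC3.

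SAMHD1, which hydrolyses deoxynucleoside triphosphates and so limits the pool, was nearly level. The brighter probe had 125 in the LNCaP control, 123 in LNCaP ATO, 176 in the PC3 control and 158 in PC3 ATO. Its local background was 1.34 times the array's median on LNCaP ATO, and the part of this in the ratio was not tested. Ordered from the lowest scaled signal to the highest, no 2 neighbouring arrays differed beyond their error, although the LNCaP arrays were the lower pair. ATO over control stood at log2 ratios of -0.12 ± 0.26 in LNCaP and -0.11 ± 0.25 in PC3. Its sign turned with the processing in both lines, to 0.04 with normexp background correction in LNCaP and to 0.09 with scaling to the 50th percentile in PC3. The dimmer probe read 54.9, 50.7, 47.9 and 57.6, and was not well above background on LNCaP ATO and the PC3 control. Its ratios were bounds, set against the lowest signal read well above background on those arrays, or its own signal where that was higher. The bound was 1.08-fold lower with ATO in LNCaP and 1.14-fold higher with ATO in PC3. Neither exceeded its error, with log2 ratios of -0.11 ± 0.41 in LNCaP and 0.19 ± 0.49 in PC3.

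**Figure D3:**
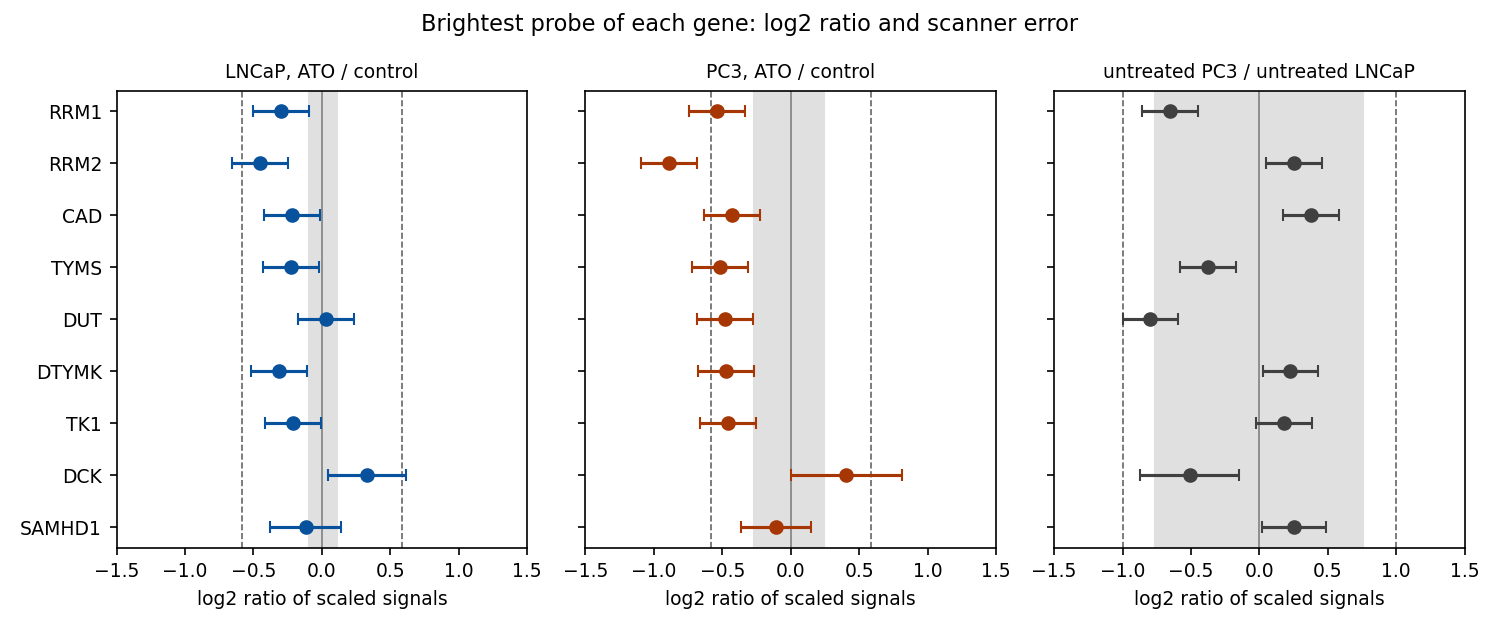
Log2 ratio of the brightest probe of each gene with the scanner's error, for ATO over control in LNCaP, in PC3, and for untreated PC3 over untreated LNCaP. Grey bands hold the middle of all genes (between the quartiles), and dashed lines mark 1.5-fold in the first 2 panels and 2-fold in the third; RRM2 in PC3, at -0.89, is the only point beyond a dashed line.

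The responses of the lines share no array and were set side by side. The log2 ratio was lower in PC3 than in LNCaP for 7 of the 9 genes, all but DCK and SAMHD1, and for 50.3% of all genes with a value in both lines (6027 of 11991). The gap was -0.51 ± 0.29 for DUT, -0.44 ± 0.29 for RRM2 and -0.29 ± 0.29 for TYMS. These were the 3 genes where it exceeded its error, as it did in that direction for 20.1% of all genes. The DUT gap is that of the brighter probe, and the dimmer DUT probe had a gap of -0.07 ± 0.32, within its error. In none of the 9 did the gap exceed 2 errors, where 13.3% of all genes did either way. In PC3, the ratio itself exceeded 2 errors for 7 of 9 genes, where 25.0% of all genes did. In LNCaP it did so for 1, RRM2, where 6.51% did. The PC3 count depended on the scaling. With scaling to the 50th percentile, RRM2 stood at -0.69 and the other genes of that count between -0.34 (RRM1) and -0.24 (CAD), within 2 errors. The share of all genes beyond 2 errors was not computed for that scaling. The gap had no replicates and was not tested across cultures.

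The single test that the design allows took the lines as 2 replicates of the treatment, in a two-sided limma test with the line as a block and 1 residual degree of freedom. None of the 9 genes passed an adjusted p of 0.05, nor did any of the 11902 genes tested (0%), with a smallest adjusted p of 0.762 among the 9. At an unadjusted p under 0.05 stood 2 of the 9 and 4.47% of all genes tested (532). These were RRM2, at a mean log2 ratio of -0.67 ± 0.17 (SE) over both lines with an unadjusted limma p of 0.0224, and RRM1, at -0.42 ± 0.14 with an unadjusted limma p of 0.049. Both were lower in 2 of 2 lines. With an intensity trend in the prior, limma again called 0 of the 9, and 5 stood at an unadjusted p under 0.05, where 5.02% of all genes did. That was the highest count of any setting: under the other alternatives 0 to 4 of the 9 did so, with 1 under scaling to the 50th percentile and 0 without a filter on dim probes.

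Between the untreated lines the 9 genes differed less than many others. None reached 2-fold, where 39.6% of all genes with a value did (6036 of 15237). DUT had the widest gap, with a log2 ratio of PC3 to LNCaP of -0.80 ± 0.20 by the brighter probe and -1.40 ± 0.22, or 2.65-fold lower, by the dimmer one. RRM1 followed at -0.65 ± 0.20, and DCK stood at -0.51 ± 0.36. TYMS read -0.37 ± 0.20, and the other 5 genes between 0.18 (TK1) and 0.38 (CAD). Those 5 signs, of RRM2, CAD, TK1, DTYMK and SAMHD1, turned with scaling to the 50th percentile, which moved the median of all genes from -0.05 to -0.49. Under that scaling DUT, at -1.24, and RRM1, at -1.09, were more than 2-fold lower in PC3, where 31.1% of all genes were at least 2-fold lower. The dimmer SAMHD1 probe, not well above background on the PC3 control, had a bound of 1.25-fold lower there, within its error (log2 ratio -0.32 ± 0.43). These ratios share the control arrays with the ratios of ATO.

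The other genes of nucleotide metabolism were read from a list of 65 by role, all of them on the array. In LNCaP, 59 had a value and none reached 1.5-fold, where 4.75% of all genes did. The list's median log2 ratio in LNCaP was -0.05. The lowest were IMPDH1, an IMP dehydrogenase of guanine nucleotide synthesis, at -0.46, and the nucleotidase NT5C3 at -0.40. Among the highest was the uridine phosphorylase UPP1 at 0.33, at low signals of 54.8 in the LNCaP control and 73.9 in LNCaP ATO.

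In PC3, 62 had a value and 10 of them were at least 1.5-fold lower and none higher. This is 16.1% of the list, beside 10.3% of all genes in that direction, and the list's median was -0.08. At 2-fold or more stood CTPS1 (named CTPS on the array), which makes CTP from UTP, at -1.24 and the reduced folate carrier SLC19A1 at -1.10. CTPS1 read 3044 in the LNCaP control, 2790 in LNCaP ATO, 3847 in the PC3 control and 1577 in PC3 ATO, so that PC3 ATO alone stood low. The highest of the list in PC3 were the thymidine phosphorylase TYMP at 0.53 and the nucleotidase NT5C at 0.39.

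The 10 genes lower in PC3 came from 5 of the 8 roles, and no test of roles was made. Those named here at less than 2-fold were chosen after their values were seen. Of 4 de novo pyrimidine genes, CTPS1 and DHODH, the dehydrogenase that makes orotate, at -0.81, were 1.5-fold lower. Of 13 de novo purine genes, PPAT, the first committed enzyme, at -0.97 and GMPS, the GMP synthase, at -0.82 were lower, and the role's median was -0.52. Of 9 folate genes with a value, 3 were lower, among them SLC19A1 and SHMT1, a serine hydroxymethyltransferase, at -0.63. UCK2, a uridine and cytidine kinase, was the salvage gene at -0.94, and DPYD at -0.97 and NT5E at -0.72 were the breakdown genes. None of 9 phosphorylation genes and none of 4 transport genes with a value reached 1.5-fold, where 18.5% of all genes did.

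**Figure D4:**
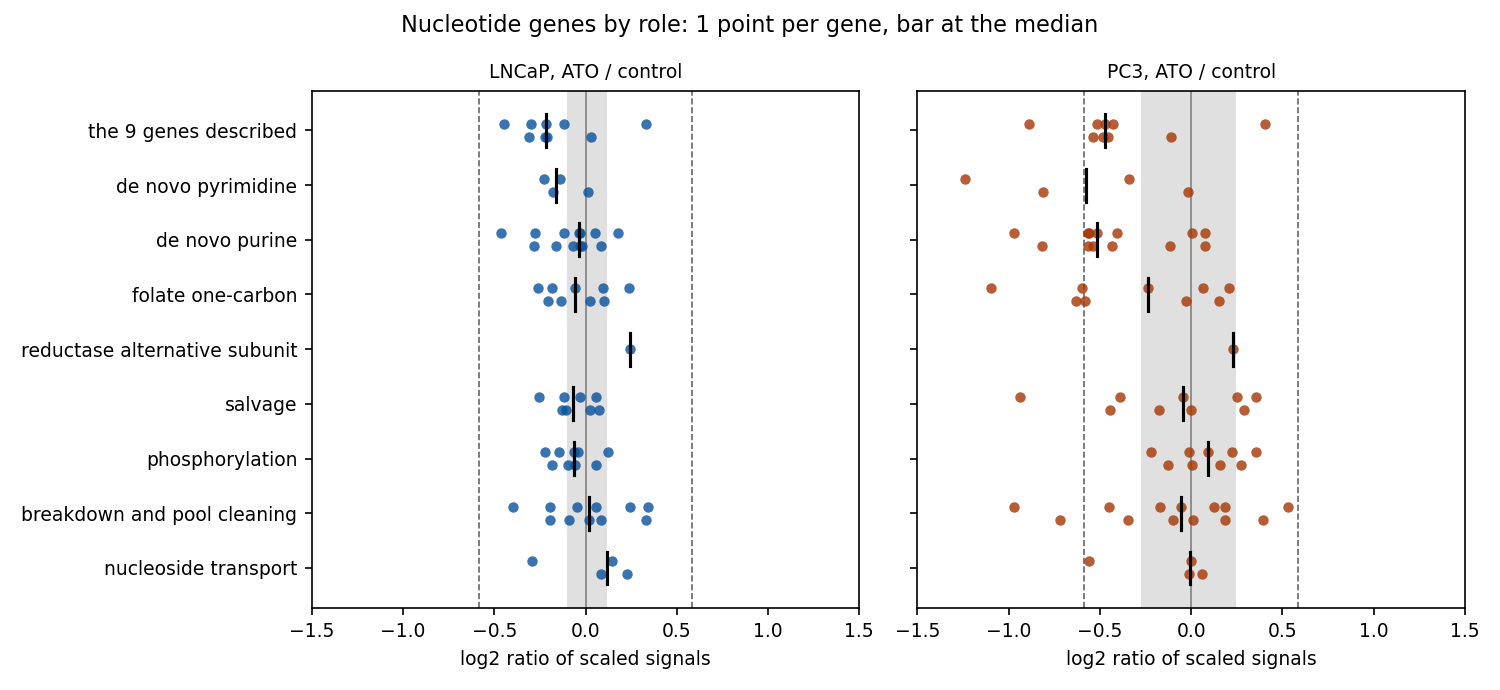
Log2 ratio of ATO over control for the 9 genes and for the other nucleotide genes by role, 1 point per gene with a value and a black bar at the median of each role, in LNCaP and PC3. Grey bands lie between the quartiles of all genes and dashed lines mark 1.5-fold; in PC3 the medians of the 9 genes (-0.47), the de novo pyrimidine genes (-0.58) and the de novo purine genes (-0.52) lie below the band, while that of the phosphorylation genes (0.09) lies within it.

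Genes whose 4 values ran most like a member's were sought among 11016 genes well above background on all arrays, by the Euclidean distance between log2 values centred on each gene's mean. Nearest to RRM2 were C11orf82 (distance 0.11), CDCA7L (0.12) and LOC100128191 (0.12), whose log2 ratios in PC3 were -0.81, -0.96 and -0.92 and in LNCaP -0.44, -0.33 and -0.41. Nearest to TYMS were PRPF4 (0.02), TUBA3C (0.06) and IDH3A (0.07). Nearest to SAMHD1 were EMX1 (0.03), CDC5L (0.03) and SRPK1 (0.04). These distances rest on 4 arrays, which all genes share, and are a description.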

How the data were processed

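Gene expression in LNCaP and PC3 cells, control or 10 µM ATO for 24 h, was measured on 4 arrays, grouped by the labels. The authors obtained spot intensity and yes or no calls with Agilent Feature Extraction 9.5.3.1, which, per the file headers, subtracted a spatially fitted background and corrected a trend over the array. The deposited table holds a ratio to each array's 75th percentile: 99.2% to 99.9% of its values checked lay within 2% of that. Here, outlier spots were dropped, the log2 intensity was averaged per probe, the array's 75th percentile was subtracted and the brightest probe stood for a gene. A probe counted when well above background on at least 1 array compared, and where dim on the other gave a bound. Thresholds were 1.5-fold for ATO and 2-fold between lines. limma 3.58.1 ran over all genes with Benjamini-Hochberg adjustment, after a test on simulated data. Genes named by rule were the members, listed nucleotide genes at 1.5-fold in LNCaP or 2-fold in PC3, the 2 highest and 2 lowest of a line, and nearest genes. RRM2B and the genes at less than 2-fold given by role in PC3 were named outside this rule. The members and lists were chosen with earlier results of these data known. The number of arrays limits the precision. The 11 alternatives are background correction, scaling, the deposited table, probe rule, threshold, filters and local background. Some listed genes are counted but not reported singly here, and the miRNA arrays of the study were not analysed here.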

Additional observations from a re-analysis of the deposited data

How the results depend on the processing

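The count of the 9 genes at 1.5-fold in PC3 was 1 and moved to 3 with normexp background correction (RRM2, DUT and TYMS) and with spike-in scaling (RRM2, RRM1 and TYMS), to 2 with the 50th percentile (RRM2 and DCK, the latter higher at 0.60), and to 0 at 2-fold. Over all genes, 18.5% were at 1.5-fold at first, 12.3% with normexp, 18.8% with spike-in scaling, 22.2% with the 50th percentile (2154 higher and 910 lower, against 1133 and 1419 at first) and 6.09% at 2-fold. The count of the 9 was also 0 when probes with a local background over 1.3 times the array's median were left out, since RRM1, RRM2 and DUT then had no value. Over all genes 15.4% were at 1.5-fold in that setting. The 50th percentile moved the median of all genes in PC3 by 0.19 and that of the 9 genes to -0.28. In LNCaP the count stayed 0 under all 11 alternatives, over 7 of the 9 when bright local backgrounds were left out and over all 9 otherwise. The share of all genes in LNCaP ran from 2.39% (at 2-fold) to 5.17% (cyclic loess), apart from 42.9% with no filter on dim probes. Between the untreated lines, 2 of the 9 passed 2-fold with the 50th percentile, where 45.9% of all genes did. With the median over probes 1, DUT, passed, where 39.1% of all genes did. The other nucleotide genes counted in LNCaP, 0 at first, were 1 of 59 with normexp (2.58% of all genes) and 5 of 65 with no filter on dim probes, where 42.9% of all genes were at 1.5-fold. In PC3 they were 10 of 62 at first (18.5% of all genes) and 17 with spike-in scaling (18.8%). They were 2 at 2-fold (6.09%) and 4 of 40 with bright local backgrounds left out (15.4%). limma called none of the genes tested among the 9 under its 11 alternatives (5 of the 9 were tested when bright local backgrounds were left out, otherwise all), and over all genes it called 5 with the 50th percentile and 0 under the other 10.

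The signs of 7 of 9 genes in LNCaP and 8 of 9 in PC3 held under every alternative with a value. The exceptions were SAMHD1 in both lines and DUT in LNCaP, at -0.01 with the median over probes. The causes of these shifts were not tested. The slide could not be fitted as a block, since there was 1 slide. Leaving out a replicate was not possible with 1 array per group. All arrays carry the same replicate number, so that number gives no pairing. The limma test pairs each line's ATO array with its own control through the line as a block.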
